A study of Mus musculus with 2 samples.

Results

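The 8 genes described here belong to the insulin-like growth factor (IGF) system: the ligand gene Igf1, the receptor genes Igf1r and Igf2r, and the binding protein genes Igfbp2, Igfbp3, Igfbp4, Igfbp5 and Igfbp7. They were found by their symbols among the 31253 genes of a single-cell RNA sequencing study of mouse brain at stage E12.5, and each symbol matched 1 gene. Cells had been sorted with CD31 microbeads, which bind an endothelial surface protein, and loaded into microwells for 3′ counting. One genotype was Foxq1flox/flox, with floxed Foxq1 alleles, and the other Foxq1iECKO, the study's endothelial loss of Foxq1, with 1 library each. FOXQ1 belongs to the forkhead family of transcription factors. The study asked about its part in vessel growth and barrier formation in the brain. The Cre driver, the time of deletion, the deleted bases and how many embryos were pooled are not stated in these sources. With 1 library per genotype no test between genotypes was possible, and the differences have no replicate check. The other IGF ligand gene is not analysed here.

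IGF ligands signal for growth and survival through the tyrosine kinase receptor encoded by Igf1r, while the receptor encoded by Igf2r takes ligand up and carries it to lysosomes. Binding proteins hold most of the ligand in body fluids and in the extracellular matrix. They prolong its life, keep it from the receptor or deliver it, and proteases that cut them release it. In the embryo mesenchyme, macrophages and vessels are among the sources of ligand and of binding proteins.

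The libraries held 76580165 and 72445925 UMIs (unique molecular identifiers, 1 per captured transcript) over 15837 and 15108 barcodes, in the order Foxq1flox/flox and Foxq1iECKO that is kept for every pair of values below. The medians were 3836 and 3660 UMIs per barcode, and 13399 and 12592 cells were used after filtering. The libraries shared 270 barcodes, and the profiles of these pairs were no more alike (median correlation 0.374) than pairs of unlike barcodes (0.390). Clusters were formed without the 8 genes and named from marker lists. Endothelial-like cells were only 18.4% [17.8, 19.1] and 13.7% [13.1, 14.3] of the cells used. Both libraries held many cells that a CD31 sort should leave behind, such as fibroblast-like, cartilage-like, osteogenic-like and neural cells. The cartilage-like and osteogenic-like cells come from outside brain tissue. Macrophage-like cells (11.1% and 16.1%) and lymphatic endothelial-like cells (2.10% and 2.04%) were classes of their own. A cluster of 468 and 813 cells held endothelial and pericyte genes together, with median UMI counts of 9386 and 8782 per cell. It is called the endothelial and pericyte cluster and was kept apart from both classes.

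A level is a gene's UMIs per 1000000 UMIs in all cells of a class from 1 library (CPM), and brackets hold 95% intervals that cover counting error only. Since the tags lie at the 3′ end and genes differ in capture, levels were compared between cells and not between genes. A gene was called higher or lower by size in Foxq1iECKO when its ratio was at least 1.5-fold and the interval excluded 1. A call of a member also needed 20 or more CPM in either library. As a check of the labels, Foxq1 in endothelial-like cells was at 442 and 155 CPM, a log2 ratio of -1.51 [-1.58, -1.43]. The endothelial subclusters with barrier genes, described below, held 39.6% and 24.5% of the UMIs of these cells. Within them Foxq1 was at 948 and 456 CPM (-1.06), and in the other endothelial subclusters at 109.7 and 57.7 CPM (-0.93). Foxq1iECKO levels with the Foxq1flox/flox UMI shares of the subclusters gave -1.05.

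The 5 binding protein genes share a stretch of cysteine codons early in the coding sequence, where the family's motif GCGCCxxC is encoded. It is shown because it separates Igfbp7, the gene with the sharpest vascular pattern here, from the others. The sequences are coding strand, 5′ to 3′, of the longest coding transcript in the GENCODE annotation (mm10), with cysteine codons in capitals.
Igfbp2: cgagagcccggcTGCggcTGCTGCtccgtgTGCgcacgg
Igfbp3: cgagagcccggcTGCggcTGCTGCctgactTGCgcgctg
Igfbp4: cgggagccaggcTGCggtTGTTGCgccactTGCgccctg
Igfbp5: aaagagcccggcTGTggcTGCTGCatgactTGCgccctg
Igfbp7: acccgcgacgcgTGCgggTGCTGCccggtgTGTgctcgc

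In all 5 the 4 cysteine codons of the stretch keep the same spacing. The codon before the first of them is a glycine codon in Igfbp2, Igfbp3, Igfbp4 and Igfbp5 and gcg, an alanine codon, in Igfbp7. With each coding sequence divided into 3 equal parts, the first part holds 11 or 12 cysteine codons in all 5 genes. The last part holds 6 in Igfbp2, Igfbp3, Igfbp4 and Igfbp5 and 2 in Igfbp7. The products of the other 4 bind IGFs tightly, whereas the product of Igfbp7 is a relative with weak IGF binding that is found around vessels.

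**Figure D1:**
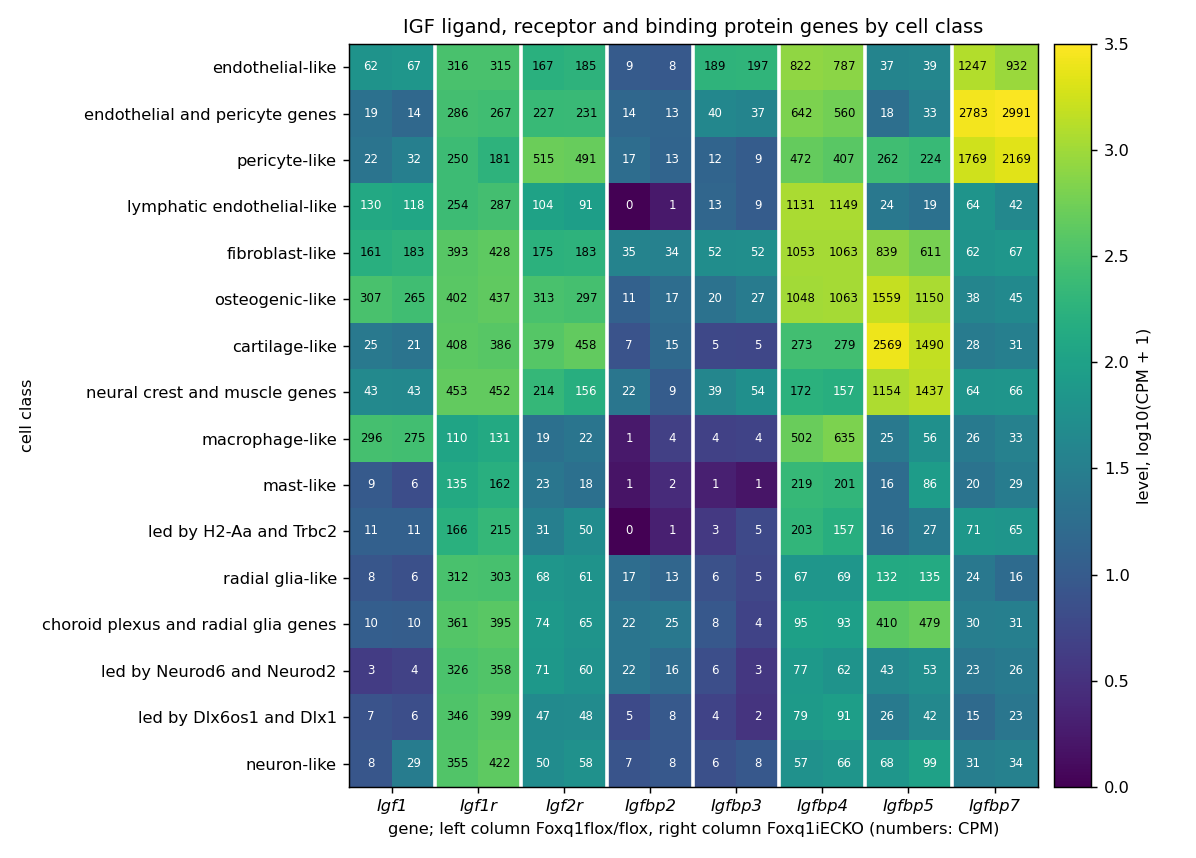
Level of each gene in 16 cell classes, as log10(CPM + 1) in colour and CPM in numbers, with the Foxq1flox/flox library in the left and the Foxq1iECKO library in the right column of each gene. Igfbp7 is high in endothelial-like cells, the endothelial and pericyte cluster and pericyte-like cells and at 70.9 CPM or lower in the other classes, Igfbp5 is highest in cartilage-like cells, and the 2 columns of a gene are mostly alike.

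Igf1, the ligand gene, was highest in osteogenic-like and macrophage-like cells, which were followed by fibroblast-like cells, and was low in neural cells. It lies on chromosome 10 from 87858265 to 87937042 on the plus strand (mm10, as for all positions here). Osteogenic-like cells held 307 CPM [282, 334] and 265 CPM [246, 284], and macrophage-like cells 296 CPM [284, 309] and 275 CPM [265, 285]. The intervals of these 2 classes overlapped in each library, and their order changed between the libraries. After them came fibroblast-like cells at 161 and 183 CPM, lymphatic endothelial-like cells at 129.8 and 118 CPM and endothelial-like cells at 62.0 and 67.2 CPM. Cartilage-like cells held 24.6 and 21.3 CPM and radial glia-like cells 7.66 and 6.25 CPM.

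Within the macrophage-like class, Igf1 was at 348 and 330.0 CPM in the cluster led by Lyve1, F13a1 and Mrc1, genes of macrophages at brain borders and vessels. It was at 240.0 and 185 CPM in the cluster led by P2ry12 and Siglech, genes of microglia, with a log2 ratio of -0.38 [-0.53, -0.23] that is below the size limit. Fibroblast-like cells also differed among themselves. The cluster led by Aldh1a2 and Agtr2 held 255 and 319.7 CPM, and the cluster led by Twist2 and Egfl6 81.1 and 135 CPM, where the log2 ratio of 0.73 [0.52, 0.94] was past the size limit (3.48% of genes there) and was 0.67 [0.42, 0.91] without the 5 cells richest in Igf1 in each library. The fibroblast-like cluster led by Cldn11 and Calca went the other way, with 225 and 162 CPM and a log2 ratio of -0.47, so that the class as a whole was at 0.19 [0.10, 0.28].

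To set shares of cells with a UMI side by side, UMIs were drawn down to 2000 per cell (thinned), which left out cells of lower depth (131 and 207 macrophage-like, 109 and 74 neuron-like, 125 and 104 barrier and 255 and 228 other endothelial cells). An Igf1 UMI was then found in 35.3% [32.8, 37.9] and 34.4% [32.2, 36.6] of macrophage-like cells (50.1% and 50.8% unthinned). Neuron-like cells served as the background for free RNA, with shares of 1.26% [0.606, 2.31] and 2.49% [1.14, 4.67] (1.88% and 4.36% unthinned; median depths 3275 and 3110.5 UMIs, against 4936.5 and 4494 in macrophage-like cells). Igf1 was called higher by size in neuron-like cells, at 7.74 and 28.8 CPM and a log2 ratio of 1.90 [1.15, 2.68]. That level rested on 24 and 45 UMIs, and 1 cell of the Foxq1iECKO library held 16 of its 45. Without the 5 cells richest in Igf1 in each library the levels were 3.90 and 10.5 CPM and the log2 ratio 1.42 [0.25, 2.63]. In neuron-like cells 6.63% of 7208 genes were past the same limits in either direction. As these cells served as the background, their Igf1 level cannot be told apart from free RNA.

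Among endothelial-like cells the ligand gene was low in those with barrier genes. Barrier subclusters, named from markers of the blood-brain barrier such as Mfsd2a and Slco1c1, held 18.3 and 14.6 CPM and the other endothelial subclusters 90.7 and 84.3 CPM. The other subclusters were thus 4.96-fold and 5.76-fold higher. The subcluster led by Egr1 and Fos was highest at 133 and 160.1 CPM, and the arterial subcluster, led by Gja5, Dkk2 and Bmx, was also low at 12.9 and 26.1 CPM. Thinned shares of cells with an Igf1 UMI were 3.80% [2.58, 5.38] and 1.89% [0.764, 3.86] in barrier and 15.5% [13.6, 17.6] and 15.6% [13.4, 17.9] in other subclusters (9.95% and 7.38%, and 30.1% and 29.5%, unthinned). The barrier share was above the neuron-like background in the Foxq1flox/flox library. In the Foxq1iECKO library the intervals of the barrier and neuron-like shares overlapped, so the barrier share could not be told apart from the background.

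Igf1r, the signalling receptor gene on chromosome 7 from 67952827 to 68233668 on the plus strand, was present in every class with a far narrower range. Its level was lowest in macrophage-like cells, at 110.3 and 131 CPM, and highest in a cluster with neural crest and skeletal muscle genes, at 453 and 452 CPM. Cartilage-like cells held 408 and 386 CPM, fibroblast-like cells 393 and 428 CPM, neuron-like cells 355 and 422 CPM and radial glia-like cells 312 and 303 CPM. In the Foxq1flox/flox library the intervals of neighbours in the order of the 16 classes overlapped from the top down to pericyte-like cells (249.7 and 181 CPM). Below that gap lay the cluster led by H2-Aa and Trbc2 (166 and 215 CPM), mast-like cells (135 and 162 CPM) and macrophage-like cells, and the last was also apart from its neighbour in both libraries. Macrophage-like cells, near the top for the ligand gene, were thus at the bottom for its receptor, while the class at the top for the receptor changed with the clustering. In endothelial-like cells Igf1r was at 316 CPM [308, 325] and 315 CPM [305, 326], a log2 ratio of 0.00 [-0.07, 0.06].

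Within the endothelial-like class Igf1r went opposite to Igf1. Barrier subclusters held 389 and 398 CPM and the other subclusters 269 and 288 CPM. The barrier subcluster led by Fam13a and Cxcl12 was highest, at 679.7 and 597 CPM, and the barrier subcluster led by Rgs5, Apod and Foxq1 was at 356 and 354 CPM. Cells of the former had a median of 2372.5 UMIs, against 7475 in the latter, and the part of this depth gap in the difference was not tested. Thinned shares of cells with an Igf1r UMI were 53.4% [49.9, 56.9] and 53.5% [48.3, 58.7] in barrier and 40.2% [37.6, 43.0] and 42.9% [39.9, 46.0] in other subclusters (79.1% and 74.3%, and 66.2% and 69.2%, unthinned).

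Igf2r, the clearance receptor gene on chromosome 17 from 12682406 to 12769664 on the minus strand, was highest in pericyte-like cells. They held 515 CPM [475, 557] and 491 CPM [453, 531]. Cartilage-like cells followed at 379 and 458 CPM and osteogenic-like cells at 313 and 297 CPM, with a log2 ratio of 0.27 [0.19, 0.35] in cartilage-like cells. Endothelial-like cells held 167 and 185 CPM (0.15 [0.06, 0.23]), neuron-like cells 49.7 and 57.7 CPM and macrophage-like cells 18.6 and 22.2 CPM. Both receptor genes were therefore lowest in macrophage-like and mast-like cells.

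Igf2r was called higher by size in an unnamed cluster led by H2-Aa, an antigen presentation gene, and Trbc2, a T cell receptor gene, at 31.4 and 49.96 CPM and 0.67 [0.09, 1.25], beside 6.46% of genes past the limits there. Without the 5 richest cells per library the log2 ratio was 0.48 [-0.20, 1.16], and with predicted doublets kept it was 0.13, both inside the limit. The antisense gene Airn overlaps Igf2r by 28354 bases. Airn was among the leading genes of an endothelial subcluster of low UMI count (led by Zfp791 and Airn), where Airn was at 527 and 461 CPM and Igf2r at 274 and 265 CPM. The cycling subcluster held 363 and 346 CPM of Airn and 234 and 215 CPM of Igf2r. The barrier subcluster led by Fam13a and Cxcl12 held 464 and 425 CPM of Airn and 185 and 211 CPM of Igf2r. In the Egr1 and Fos subcluster Airn was at 104 and 115 CPM and Igf2r at 220 and 260 CPM. Whether the counting used strand is not stated in these sources, so reads from the shared bases cannot be told apart.

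Igfbp2, which lies on chromosome 1 from 72824503 to 72852474 on the plus strand, was low in every class. It was highest in fibroblast-like cells, at 35.4 CPM [32.0, 38.9] and 33.99 CPM [30.7, 37.5], and among them in the clusters led by Cldn11 and Calca (49.6 and 62.8 CPM) and by Twist2 and Egfl6 (52.0 and 47.2 CPM). Radial glia-like cells held 16.6 and 13.2 CPM, the choroid plexus and radial glia cluster 22.1 and 24.5 CPM and the cluster led by Neurod6 and Neurod2, genes of young cortical neurons, 21.9 and 16.5 CPM. In endothelial-like cells it was at 9.23 and 8.45 CPM. Barrier subclusters held 14.1 and 14.3 CPM and the other subclusters 6.06 and 6.55 CPM, a 2.32-fold and 2.18-fold difference between few counts. Below 20 CPM, Igfbp2 was past the ratio limit in 2 classes. Cartilage-like cells held 6.77 and 14.7 CPM (1.12 [0.58, 1.67]) and macrophage-like cells 0.759 and 3.57 CPM (2.23 [0.97, 3.77]). The share of all genes past the ratio limit at such low levels was not counted in these classes. The summed level of fibroblast markers was also higher in the Foxq1iECKO library in both classes, as given below for Igfbp5. Its part in the Igfbp2 values was not tested.

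Igfbp3, which encodes the main carrier of IGF in adult blood and lies on chromosome 11 from 7206086 to 7213923 on the minus strand, was an endothelial gene in these libraries. Endothelial-like cells held 189 CPM [183, 196] and 197 CPM [189, 205]. No other class was above 54.4 CPM. Fibroblast-like cells held 51.5 and 51.8 CPM, the cluster with neural crest and skeletal muscle genes 39.3 and 54.4 CPM and macrophage-like cells 3.79 and 4.07 CPM. Pericyte-like cells, at 12.4 and 9.46 CPM, were far below their endothelial neighbours. Lymphatic endothelial-like cells, at 13.3 and 9.35 CPM, were also low.

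Within the endothelial-like class the subclusters differed widely in Igfbp3. The arterial subcluster of 114 and 81 cells was highest at 811 and 808 CPM, with a log2 ratio of -0.01 [-0.19, 0.18]. Barrier subclusters were lowest at 91.6 and 78.0 CPM, and the other subclusters pooled held 253 and 236 CPM, which is 2.77-fold and 3.02-fold higher. The unnamed subcluster led by Zfp791 and Airn held 389 and 265 CPM (-0.55 [-0.90, -0.22]) and that led by Egr1 and Fos 289 and 225 CPM. Thinned shares of cells with an Igfbp3 UMI were 12.8% [10.5, 15.3] and 8.92% [6.22, 12.3] in barrier and 31.4% [28.9, 34.01] and 29.99% [27.2, 32.9] in other subclusters (28.6% and 20.9%, and 48.6% and 47.2%, unthinned). In myeloid leukocyte-like cells, the background for the binding protein genes, they were 0% [0, 4.45] and 1.47% [0.0372, 7.92], where the 0 of 81 cells allows a share of up to 3.70% (median depths 4016 and 3565 UMIs, against 5300 and 3623 in barrier and 4066 and 4360 in other subclusters).

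**Figure D2:**
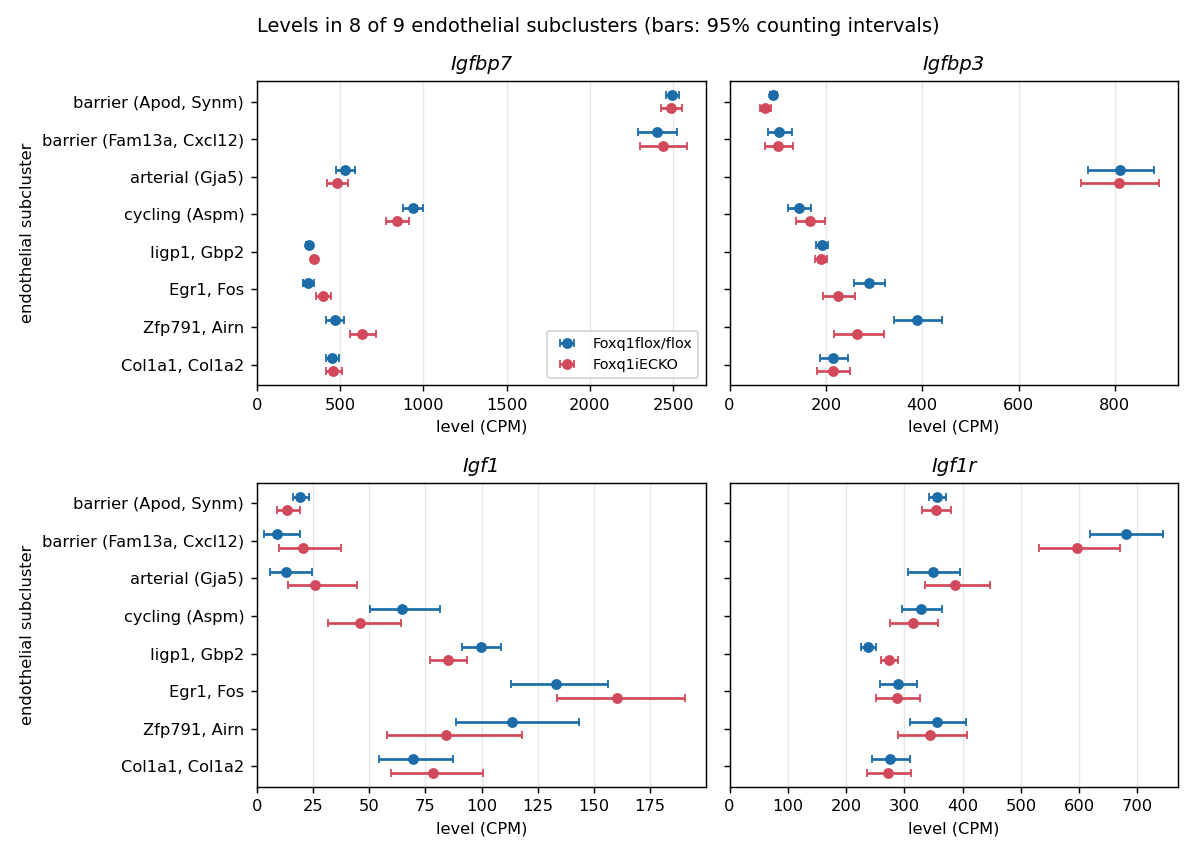
Levels (CPM) of Igfbp7, Igfbp3, Igf1 and Igf1r in 8 of the 9 endothelial subclusters, named by subtype or by leading genes, with 95% counting intervals for the Foxq1flox/flox (blue) and Foxq1iECKO (red) libraries. Igfbp7 is highest in both barrier subclusters, Igfbp3 in the arterial subcluster and Igf1 outside both, and the points of the 2 libraries lie close together in most subclusters.

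Igfbp4, a secreted binding protein gene on chromosome 11 from 99041244 to 99054392 on the plus strand, was high in lymphatic, mesenchymal and endothelial cells. Lymphatic endothelial-like cells held 1131 and 1149 CPM, fibroblast-like cells 1053 and 1063 CPM, osteogenic-like cells 1048 and 1063 CPM and endothelial-like cells 822 and 787 CPM. The arterial subcluster was the highest endothelial subcluster at 1393 and 1440.3 CPM, and barrier subclusters held 739.8 and 630.5 CPM (-0.23 [-0.31, -0.15]). Neural cells held less, with 57.1 and 66.0 CPM in neuron-like cells and 95.1 and 93.3 CPM in the choroid plexus and radial glia cluster.

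Macrophage-like cells held 502 and 635 CPM of Igfbp4, a log2 ratio of 0.34 [0.28, 0.40] that is inside the size limit. The Lyve1 and Mrc1 cluster was at 842 and 919 CPM and the P2ry12 and Siglech cluster at 125 and 154 CPM. The smaller macrophage-like cluster led by the interferon response genes Rsad2 and Ifit1, with 80 and 235 cells, lay between them at 688 CPM [619, 763] and 726 CPM [680.2, 773]. The Lyve1 and Mrc1 cluster had 670 and 1027 cells and the P2ry12 and Siglech cluster 734 and 771, so that the mix of the class also moved between the libraries.

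Igfbp5 was highest in cartilage-like cells and was past the size limits in 5 classes, more than any other member. It encodes a binding protein that is held in bone and cartilage matrix, and lies on chromosome 1 from 72857932 to 72874884 on the minus strand, 5457 bases from Igfbp2. Cartilage-like cells held 2569 CPM [2533, 2606] and 1490.5 CPM [1457, 1525], from 18988 and 7419 UMIs in 1457 and 1006 cells. The log2 ratio was -0.79 [-0.82, -0.75], lower by size in the Foxq1iECKO library, and it was -0.83 [-0.87, -0.79] without the 5 richest cells per library. This was the only member called among the 6 at 20 or more CPM in cartilage-like cells, where 2.04% of 6652 genes were past the limits. Thinned shares of cartilage-like cells with an Igfbp5 UMI were 74.6% [72.3, 76.9] and 54.0% [50.7, 57.2] (80.4% and 62.3% unthinned).

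Other mesenchymal cells leaned the same way without reaching the size limit. Osteogenic-like cells held 1559 and 1149.9 CPM (-0.44 [-0.51, -0.37]), and in fibroblast-like cells the gene was at 839 and 611 CPM (-0.46 [-0.50, -0.41]). Of the 4 fibroblast-like clusters, that led by Aldh1a2 and Agtr2 held 1682 and 1231 CPM, that led by Twist2 and Egfl6 651 and 492 CPM, that led by Tnn and Mab21l2 183 and 148 CPM and that led by Cldn11 and Calca 673 and 697 CPM. The first 3 were lower and the last was higher in the Foxq1iECKO library, with log2 ratios of -0.45, -0.41, -0.30 and 0.05. The cluster with neural crest and skeletal muscle genes held 1154 CPM [1065, 1249] and 1437 CPM [1357, 1520.0] (0.32 [0.17, 0.46]). In the Foxq1iECKO library its interval overlapped that of cartilage-like cells, and it lay above osteogenic-like cells. In cartilage-like cells the summed level of the 10 fibroblast markers was 4674 and 6686 CPM and that of the 9 cartilage markers 15987 and 16695 CPM. Of the fibroblast markers 8 of 10 were higher in the Foxq1iECKO library, and their part in the Igfbp5 difference was not tested.

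Where Igfbp5 was low, it was called higher by size in several classes. Macrophage-like cells held 24.9 and 56.2 CPM (1.17 [0.94, 1.41]; 2.28% of genes past the limits), and 1.07 [0.78, 1.36] without the 5 richest cells per library. Both large macrophage clusters were past the limit, the Lyve1 and Mrc1 cluster at 30.9 and 74.2 CPM (3.63% of genes there) and the P2ry12 and Siglech cluster at 19.0 and 31.4 CPM (2.15%). Without the 5 richest cells per library the former was at 1.21 [0.80, 1.64], past the limit, and the latter at 0.26 [-0.47, 0.99], inside it. In the same cells 10 of 10 fibroblast markers were higher in that library, with summed levels of 203 and 829 CPM and none at 0, and their part in the result was not tested. The thinned share of macrophage-like cells with an Igfbp5 UMI was 2.59% [1.81, 3.58] and 3.34% [2.56, 4.27] (5.80% and 6.10% unthinned). Myeloid leukocyte-like cells, the background, had 4.94% [1.36, 12.2] and 2.94% [0.358, 10.2], from 81 and 68 cells, so that Igfbp5 in macrophage-like cells cannot be told apart from free RNA.

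In the endothelial and pericyte cluster Igfbp5 was at 17.9 and 33.2 CPM (0.89 [0.52, 1.27]; 0.994% of genes past the limits), and at 1.21 [0.75, 1.70] without the 5 richest cells. All 10 fibroblast markers were also higher there in the Foxq1iECKO library, at 642 and 808 CPM summed, and their part was not tested. In mast-like cells it was at 16.2 and 86.0 CPM (2.41 [1.85, 3.02]; 4.48% of genes), but 1 cell of the Foxq1iECKO library held 130 of 150 UMIs. Without the 5 richest cells the mast-like log2 ratio was 0.60 [-0.85, 2.11]. The cluster led by Dlx6os1 and Dlx1, genes of inhibitory neurons, went from 0.68 [0.00, 1.35] to 0.02 [-0.94, 0.91] in the same way (4.73% of genes past the limits).

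Endothelial-like cells as a class held little Igfbp5, 37.4 and 39.1 CPM (0.06 [-0.11, 0.24]), and the calls in their subclusters mostly rested on few cells. Barrier subclusters, at 27.8 and 16.1 CPM (-0.79 [-1.30, -0.31]; 2.63% of genes past the limits), were lower by size in the Foxq1iECKO library, from 190 and 44 UMIs. So were the cycling subcluster at 62.7 and 21.6 CPM (-1.54 [-2.42, -0.73]; 6.28% of genes), from 68 and 16 UMIs, and the Egr1 and Fos subcluster at 66.7 and 20.02 CPM (-1.74 [-2.61, -0.94]; 4.89%), from 76 and 16 UMIs. The arterial subcluster was higher by size at 11.5 and 42.2 CPM (1.88 [0.64, 3.26]; 6.21%), from only 8 and 21 UMIs, of which 1 cell of the Foxq1iECKO library held 9. The subcluster led by the collagen genes Col1a1 and Col1a2 was also higher, at 104 and 163 CPM (0.64 [0.26, 1.03]; 6.29%), from 108 and 125 UMIs. Without the 5 richest cells per library, the Egr1 and Fos call was kept at -1.83 [-3.39, -0.55]. The calls in barrier subclusters (-0.40 [-1.11, 0.25]), the cycling subcluster (-1.02 [-2.29, 0.12]) and the collagen subcluster (0.49 [-0.03, 1.01]) were lost, and the arterial subcluster was left with 0 UMIs in the Foxq1flox/flox library. Fibroblast markers in barrier subclusters summed to 175 and 259 CPM, and their part was not tested.

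**Figure D3:**
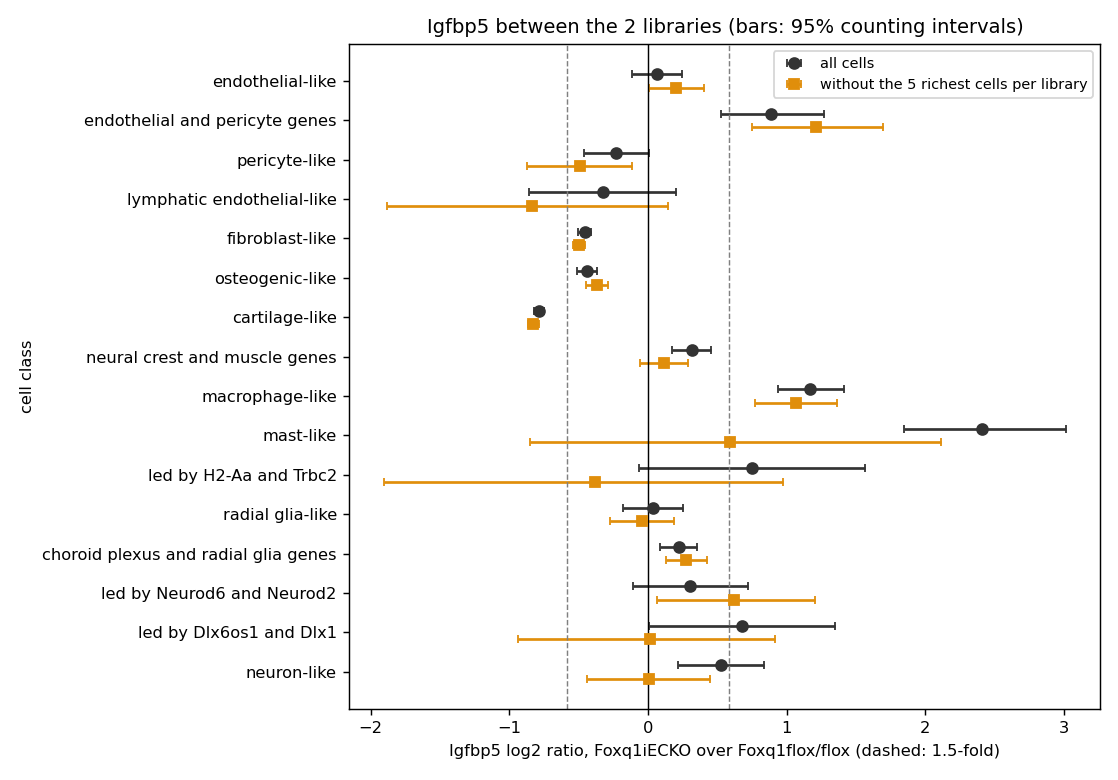
Log2 ratio of Igfbp5, Foxq1iECKO over Foxq1flox/flox, in 16 cell classes with 95% counting intervals, over all cells (circles) and without the 5 cells richest in Igfbp5 in each library (squares), with dashed lines at 1.5-fold. Cartilage-like cells lie at -0.79 with a narrow interval in both forms, while the points of mast-like cells and of the Dlx6os1 and Dlx1 cluster move from 2.41 to 0.60 and from 0.68 to 0.02.

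Igfbp7 was high in cells of the vessel wall and far lower elsewhere. It lies on chromosome 5 from 77349240 to 77408041 on the minus strand. The endothelial and pericyte cluster held 2783 CPM [2735, 2832] and 2991 CPM [2952, 3030.2], pericyte-like cells 1769 CPM [1695, 1846] and 2169 CPM [2089, 2252] and endothelial-like cells 1247 CPM [1229.9, 1263] and 932 CPM [914, 950.0]. No other class of 100 or more cells per library was above 70.9 CPM, the value of the cluster led by H2-Aa and Trbc2 in the Foxq1flox/flox library. Fibroblast-like cells held 62.2 and 67.2 CPM and neuron-like cells 30.6 and 33.96 CPM. Of the smaller classes, megakaryocyte-like cells (74 and 50) held 190 and 252 CPM and myeloid leukocyte-like cells (96 and 95) 71.4 and 121 CPM. The cluster led by Sox14 and Lhx1 (99 and 50 cells) held 51.1 and 18.6 CPM.

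The 250 bases before the start of Igfbp7 in RefSeq (GRCm38.p6, chr5:77408046-77408295, minus strand) are shown because its 2 most similar genes below encode DNA-binding factors. Capitals mark the match to ACGTG, the core of the hypoxia response element bound by the factor that Epas1 encodes.
Igfbp7: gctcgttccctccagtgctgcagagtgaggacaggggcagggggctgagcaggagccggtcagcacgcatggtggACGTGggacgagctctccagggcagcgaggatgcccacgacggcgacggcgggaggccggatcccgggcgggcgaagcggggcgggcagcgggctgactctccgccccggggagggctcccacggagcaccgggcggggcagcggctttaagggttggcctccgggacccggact

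Motifs were searched on both strands of this window in all 8 genes and in 32851 windows of the genome. ACGTG was found for Igfbp7, Igfbp2 and Igf2r and in 16.6% of all windows. The forkhead core TGTTTA was found only in a window of Igfbp2 and in 12.0% of all windows, and TATAAA only for Igfbp4 and in 12.4%. These matches describe letters in the windows and not binding.

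Within the endothelial-like class Igfbp7 was concentrated in barrier subclusters. They held 2486 and 2481 CPM, a log2 ratio of 0.00 [-0.04, 0.04], and the other subclusters 433 and 428 CPM (-0.02 [-0.08, 0.05]). Barrier cells were thus 5.74-fold higher in the Foxq1flox/flox library and 5.80-fold higher in the Foxq1iECKO library. The 2 barrier subclusters were alike, at 2495 and 2490.1 CPM and 2405 and 2439 CPM. The cycling subcluster was intermediate at 936 and 843 CPM, the arterial subcluster held 530.4 and 482 CPM, and the subcluster led by the interferon genes Iigp1 and Gbp2 312 and 345 CPM. After thinning, 93.5% [91.6, 95.2] and 91.6% [88.3, 94.2] of barrier cells, 41.7% [39.0, 44.4] and 43.3% [40.3, 46.4] of other endothelial cells and 83.8% [78.6, 88.2] and 92.0% [88.1, 95.01] of pericyte-like cells had an Igfbp7 UMI, against 9.88% [4.36, 18.5] and 14.7% [7.28, 25.4] of myeloid leukocyte-like cells. Unthinned, the shares were 96.6% and 96.2% in barrier, 59.2% and 61.6% in other endothelial, 94.0% and 93.6% in pericyte-like and 19.8% and 30.5% in myeloid leukocyte-like cells.

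Taken over the whole endothelial-like class, Igfbp7 was lower in the Foxq1iECKO library, from 1247 to 932 CPM, with a log2 ratio of -0.42 [-0.45, -0.39] that lies inside the size limit. Barrier subclusters were 37.0% [35.1, 39.0] and 27.4% [25.3, 29.6] of endothelial-like cells and 39.6% and 24.5% of their UMIs. When the Foxq1flox/flox levels of the 9 subclusters were combined with the UMI shares of the Foxq1iECKO library, the class level came to 919 CPM, a log2 ratio of -0.44. Foxq1iECKO levels with Foxq1flox/flox shares gave 1252 CPM. With every subcluster weighted equally the log2 ratio was -0.01. The difference over the class was thus as large when only the subcluster shares differed. Those subclusters were formed by other barrier genes, so fewer barrier cells and cells that had lost those genes cannot be told apart.

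The pooled ratio also depended on which cells were counted. It was -0.65 with a stricter cell filter (at least 1000 genes and 2000 UMIs, at most 10% mitochondrial UMIs), past the size limit, and 0.17 with the endothelial and pericyte cluster added, the opposite direction. That cluster was 3.49% and 6.46% of the cells used, and its own Igfbp7 log2 ratio was 0.10 [0.07, 0.14]. Pericyte markers in endothelial-like cells summed to 271 and 399 CPM, with 10 of 10 higher in the Foxq1iECKO library, and in barrier subclusters to 393 and 913 CPM (10 of 10). Their part in the Igfbp7 levels was not tested. In pericyte-like cells Igfbp7 had a log2 ratio of 0.29 [0.21, 0.38].

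Foxq1 and Igfbp7 followed each other across cell types, while their ratios between the libraries were unlike. Over 26 clusters of at least 100 cells, the genes whose mean log2(CPM + 5) was most like that of Igfbp7, among 7673 genes, were Epas1 (r = 0.966), which encodes a hypoxia-inducible factor of endothelium, Foxq1 (0.958) and the integrin gene Itga1 (0.939). The clusters share 2 libraries and differ in depth, so these correlations are descriptions. With Foxq1 the value was 0.943 in the Foxq1flox/flox and 0.960 in the Foxq1iECKO library. In barrier subclusters, however, Foxq1 had a log2 ratio of -1.06 [-1.14, -0.97] while Igfbp7 was at 2486 and 2481 CPM. In the endothelial and pericyte cluster Foxq1 was at 1064 and 581 CPM (-0.87 [-0.93, -0.81]) and Igfbp7 at 2783 and 2991 CPM. Over the whole endothelial-like class both were lower, with log2 ratios of -1.51 for Foxq1 and -0.42 for Igfbp7. Foxq1 was not held out of the clustering as the members were. It is a leading gene of a barrier subcluster and of the endothelial and pericyte cluster. The comparisons within them therefore cover only cells still grouped with such genes, and a link between Foxq1 and Igfbp7 was not tested. As 3′ tags were counted and the deleted bases are not known here, Foxq1 UMIs that remain may or may not mark intact transcripts.

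**Figure D4:**
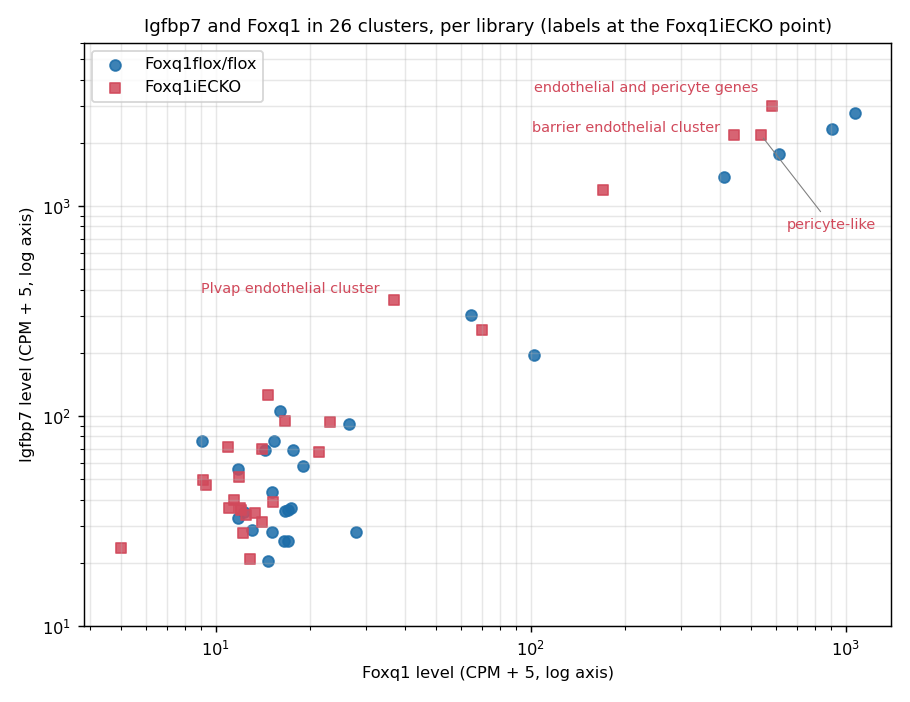
Igfbp7 level against Foxq1 level (both CPM + 5, log axes) in 26 clusters, with 1 point per cluster and library (blue circles Foxq1flox/flox, red squares Foxq1iECKO). Points high for one gene are high for the other in both libraries, and the Foxq1iECKO points of the endothelial and pericyte cluster (581 CPM) and the barrier cluster lie to the left of their Foxq1flox/flox counterparts at about the same Igfbp7 level.

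The 2 calls of Igfbp7 outside the endothelial-like class, both at low levels, were each lost under some other settings. Lymphatic endothelial-like cells held 63.9 and 41.7 CPM (-0.62 [-0.96, -0.28]; 2.58% of genes past the limits), with -0.53 [-0.93, -0.14] without the 5 richest cells and -0.21 with doublets kept. Radial glia-like cells held 23.8 and 15.8 CPM (-0.59 [-1.18, -0.01]; 3.93% of genes), with -0.33 [-1.06, 0.41] without the 5 richest cells.

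Counted together, 7 of the 8 genes were at 20 or more CPM in endothelial-like cells, and 0 of the 7 were past the size limits, beside 1.11% of 6214 genes. Their median log2 ratio was 0.06, against -0.01 for all these genes. With Foxq1iECKO levels and Foxq1flox/flox UMI shares of the subclusters it was -0.10, and with subclusters weighted equally -0.03. In barrier subclusters 6 reached that level and 1 was called, Igfbp5, a call lost without the 5 richest cells, beside 2.63% of genes, and in the other subclusters 0, beside 0.615%. Pericyte-like cells (5.7%), osteogenic-like cells (3.89%), fibroblast-like cells (1.65%), the choroid plexus and radial glia cluster (6.18%) and the Neurod6 and Neurod2 cluster (5.57%) also had 0 members called.

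Genes around the members were measured with a list of 60 in 8 roles. At 10 or more CPM, 38 could be assessed in endothelial-like cells. Of these, 0 were higher and 1 was lower, beside 1.49% of genes past the limits at that level, with a median log2 ratio of 0.06 against -0.01. The lower gene was Htra3, a secreted protease with an IGF-binding domain, at 123 and 74.5 CPM (-0.72 [-0.84, -0.60]), and the other subclusters, with 38 assessed and this 1 past the limits beside 1.36% of genes, held 17.1 and 10.6 CPM. In barrier subclusters Htra3 was inside the limit, at 283 and 271 CPM (-0.06 [-0.19, 0.06]), and Foxq1iECKO levels with Foxq1flox/flox UMI shares gave -0.16 for the class. Among adaptors, Grb10, which restrains the receptor, had the most UMIs, at 676 and 748 CPM. In other roles the genes with the most UMIs were Gsk3b, a kinase under AKT (328 and 309 CPM), Adamts1, a matrix protease (285 and 264 CPM), the forkhead factor Foxo1, which AKT keeps out of the nucleus (252 and 269 CPM), Igf2bp1, an mRNA-binding protein (152 and 165 CPM), Jak2, the kinase of the growth hormone receptor (139 and 123 CPM), and Insr, the insulin receptor (82.1 and 73.8 CPM). The matricellular gene Ccn2, which had the most UMIs among relatives of the binding proteins, was at 235 and 345 CPM (0.55 [0.49, 0.62]), inside the limit.

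Barrier subclusters had 40 of the 60 at that level, with 3 higher and 1 lower, beside 4.45% of genes past the limits. The adaptor genes Irs1 (2.93 and 12.1 CPM, 2.04 [1.20, 2.92]) and Irs2 (18.5 and 27.8 CPM, 0.59 [0.16, 1.01]), which carry the receptor's signal to PI3K, and the kinase gene Akt2 (7.32 and 13.2 CPM) were higher. Esm1, a secreted product of sprouting endothelium and a distant relative of the binding proteins, was lower at 78.4 and 42.5 CPM (-0.88 [-1.19, -0.59]). Irs1 and Akt2 were below the 20 CPM asked of members in both libraries. The check without the 5 richest cells per library was not made for genes of the list in any class. The part of single cells in their calls was therefore not tested. In barrier subclusters that check removed the Igfbp5 call, which came from 190 and 44 UMIs. In the endothelial and pericyte cluster, with 40 genes assessed, 0 were higher and 2 lower, beside 2.74% of genes. Esm1 was again lower there, at 49.5 and 29.3 CPM (-0.76 [-1.03, -0.48]), and so was the forkhead gene Foxo4, at 10.8 and 6.69 CPM. Fibroblast-like cells had 44 assessed, 2 higher and 1 lower (2.4% of genes), and osteogenic-like cells 45, 2 higher and 1 lower (4.81%). Neuron-like cells had 43, 6 higher and 2 lower (7.41%), radial glia-like cells 42, 2 higher and 2 lower (5.24%), and the choroid plexus and radial glia cluster 44, 3 higher and 1 lower (6.85%).

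Patterns of the other members over the 26 clusters placed them with different genes. Igfbp3 was most like Tspan9 (r = 0.876), Igfbp4 like Rbms1 (0.888), Igfbp5 like Ugdh (0.894), an enzyme of matrix sugar synthesis, and Igfbp2 like the Wnt receptor gene Fzd1 (0.891). Igf2r was most like the collagen chaperone gene Serpinh1 (0.929), Igf1 like Dse (0.818) and Igf1r like Gtf2ird1 (0.876). The next nearest were Npr3 (0.866) and Shroom4 (0.862) for Igfbp3, Anxa2 (0.885) and Cmtm3 (0.862) for Igfbp4, Capn6 (0.876) and Has2 (0.872) for Igfbp5, and Lix1l (0.845) and Axin2 (0.840) for Igfbp2. For the receptors and ligand they were Fermt2 (0.904) and Morf4l2 (0.903) for Igf2r, Prrc2b (0.874) for Igf1r, and Dab2 (0.802) and Kctd12 (0.802) for Igf1. Between members the highest value was for Igf1 and Igfbp4 (0.730), and Igfbp2 and Igfbp5, neighbours on chromosome 1, had 0.616. The lowest was for Igf1 and Igf1r (-0.20), the ligand and its receptor.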

How the data were processed

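The authors deposited raw UMI counts, whole numbers for each gene in each barcode. Reads were handled with fastp 0.24.0 and STARsolo (version 2.7.11b) on mm10, per the submitters' processing notes, with no further settings stated. No barcode was below 500 UMIs, and per the labels' protocols the tags mark 3′ ends.

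The cell filter asked for 500 genes, 1000 UMIs and a mitochondrial share of 20% or less, and Scrublet (scanpy 1.11.5, expected share 8%) removed 534 and 516 predicted doublets (3.83% and 3.94%). Clustering used 2000 variable genes without the members, 30 components, 20 neighbours and Leiden clustering at resolution 1 (igraph 0.11.9, leidenalg 0.10.2) and, for endothelial-like cells, 0.6. A name needed 3 markers at 50 or more CPM and 2-fold above other cells, with a pseudocount of 5 CPM, and a cluster holding 50% of an unrelated list was called mixed.

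Intervals are exact Poisson (levels), Clopper-Pearson (shares) and conditional binomial (ratios), at 95%, and cover counting error only. The size rule was tested on simulated data, where it missed part of the genes changed by exactly 1.5-fold. Background shares cover genes at 20 or more CPM in either library, and the list of 60 genes those at 10 or more. Named genes were the members, Foxq1, list genes past the size rule or most abundant in their role, and the 3 genes most like each member among those at 50 or more CPM in a cluster, of which 1 is not reported here. Members and lists were chosen with earlier results of these data known. Alternatives covered DESeq2 1.42.0 and edgeR 4.0.16 scaling, cell filters, doublets, clustering, a marker gate, thinning and limits. Positions come from the GENCODE vM21 annotation, and all 8 genes matched a RefSeq promoter window. Scripts ran in Python 3.11.15 (scipy 1.17.1, pandas 2.3.3, numpy 2.4.6) and R 4.3.3.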

Additional observations from a re-analysis of the deposited data

Results flagged for a closer look

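Igfbp5 moved in opposite directions between the libraries in different cell classes, and the difference between classes was not tested. Its log2 ratio, Foxq1iECKO over Foxq1flox/flox, was -0.79 in cartilage-like cells. It was 1.17 in macrophage-like cells, 0.89 in the cluster with endothelial and pericyte genes, 0.68 in the cluster led by Dlx6os1 and Dlx1 and 2.41 in mast-like cells. The level in the Foxq1flox/flox library was 2569 CPM in cartilage-like cells and at most 26.2 CPM in the other 4 classes. Without the 5 cells richest in Igfbp5 in each library, the mast-like value was 0.60 [-0.85, 2.11] and that of the Dlx6os1 and Dlx1 cluster 0.02 [-0.94, 0.91], while the other 3 kept their direction and stayed past 1.5-fold. Among all genes 2.04%, 2.28%, 0.994%, 4.73% and 4.48% were past the limits, in the order of the classes above. In macrophage-like cells Igfbp5 could not be told apart from free RNA. All listed fibroblast markers were also higher there and in the endothelial and pericyte cluster, and their part was not tested.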

How the results depend on the processing

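In endothelial-like cells 69 genes were past the size limits, and this became 149 with cells thinned to 2000 UMIs, 5 with a limit of 2-fold and 119 with the stricter cell filter. The members past the limits were 0, and 1 with the stricter filter (Igfbp7, -0.65). The background share of 1.11% became 3.51% with no filter on low values. The class with the highest mean level over both libraries, counted as kept for all 8 members, was kept for 5 with doublets included and for 5 with members among the variable genes. Igf1, Igf1r and Igfbp4 were the exceptions in both, where clusters led by Ibsp were highest. Of the 24 most similar genes, 14 were among the same 3 in the Foxq1iECKO library alone. Over 13 alternatives the endothelial-like log2 ratios ran from -0.65 to 0.17 for Igfbp7, -0.21 to 0.24 for Igf1, -0.25 to 0.18 for Igfbp3, -0.11 to 0.21 for Igfbp5, -0.17 to -0.03 for Igfbp4, -0.19 to 0.12 for Igfbp2, 0.04 to 0.18 for Igf2r and -0.07 to 0.02 for Igf1r. Causes of these shifts were not tested. In fibroblast-like cells Igfbp5 passed the limit with members among the variable genes (-0.64). Leaving out the 5 richest cells per library and combining levels of one library with subcluster shares of the other were chosen after seeing the data. No paired analysis was possible because each genotype had 1 library, and for the same reason no replicate could be left out. Depth limits Igfbp2 in endothelial-like cells, whose interval of -0.13 [-0.51, 0.25] on the log2 scale is wide.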

Other observations

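Among the genes that cut or hold the binding proteins, Stc1, an inhibitor of the protease that cleaves IGFBP4, was lower by size in fibroblast-like cells at 232 and 130.5 CPM (-0.83 [-0.92, -0.74]). The 2 higher genes of the list in these cells were the matricellular gene Ccn3 at 8.54 and 17.9 CPM (1.07 [0.72, 1.43]) and Htra3 at 6.07 and 10.7 CPM (0.82 [0.38, 1.26]). In fibroblast-like cells 44 genes of the list were assessed, with 2 higher and 1 lower, beside 2.4% of genes past the limits. Pappa, the gene of the protease itself, was lower by size in osteogenic-like cells at 34.4 and 22.8 CPM (-0.59 [-1.11, -0.07]) and in the choroid plexus and radial glia cluster at 45.4 and 25.0 CPM (-0.86 [-1.36, -0.37]). Htra1, another protease gene, was higher in both, at 6.76 and 18.7 CPM and 3.32 and 13.1 CPM. Of the proteases and their inhibitors, 8 and 6 were assessed in these cells, with 2 higher and 1 lower in each. Among all genes 4.81% and 6.85% were past the limits there. Igfbpl1, a relative of the binding proteins in neural progenitors, was at 34.03 and 53.6 CPM in radial glia-like cells (0.66 [0.26, 1.06]) and 23.8 and 38.5 CPM in the choroid plexus and radial glia cluster (0.69 [0.16, 1.25]), higher by size in both. Radial glia-like cells had 42 genes of the list assessed, with 2 higher and 2 lower, beside 5.24% of genes past the limits.

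In neuron-like cells 43 genes of the list were assessed, with 6 higher and 2 lower, beside 7.41% of genes past the limits. The part of single cells in these calls was not tested. The 6 higher genes were Grb10 at 145 and 219.8 CPM (0.60 [0.40, 0.81]), the forkhead factor genes Foxo1 (29.0 and 45.5 CPM) and Foxo3 (48.4 and 78.8 CPM), and Ccn1, Ccn2 and Stc2. The 2 lower genes were Plat, a protease gene, at 36.8 and 16.02 CPM (-1.20 [-1.89, -0.56]) and the adaptor gene Irs4 at 13.5 and 5.77 CPM.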
